A study of Homo sapiens with 18 samples.

Results

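The MYC binding sites of cells carrying either of 2 hairpins against G9a were set against each other, without the scramble libraries of the same study. The 6 libraries chosen, of 18 samples in the series, are those whose labels name a G9a hairpin and the MYC antibody N262. They are 3 biological replicates of shG9a_1 and 3 of shG9a_4, named here after the labels of the hairpin plasmids. All 6 come from MCF10A, an immortalised, non-tumour breast epithelial cell line, and all carry pBABE-hygro-MYC and pMN-IRES-GFP-PI3KH1047R, so that MYC and a mutant PI3K were expressed ectopically in both groups. The groups differ in the third plasmid, pLKO-tetON-puro-shG9a 1 or pLKO-tetON-puro-shG9a 4, and in both the hairpin was induced with doxycycline at 2 µg/mL for 72 h. Sites were profiled by chromatin immunoprecipitation and sequencing (ChIP-seq), and each library has its own list of peaks on the hg19 build. Replicate 1 of shG9a_1 was kept apart because of its very short list, which left 5 libraries on chromosomes 1 to 22. The sources used here do not say whether a line was a clone or a pool of cells, nor how far each hairpin lowered G9a.

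MYC is a transcription factor that binds DNA as a dimer with MAX, most often at E-box motifs in active promoters, and its sites in cells with much MYC run from a few very strong promoters to many weak ones. G9a, encoded by EHMT2, adds methyl groups to histone H3 at lysine 9 and is best known for silencing genes together with its partner GLP. A hairpin can also act on transcripts other than its target, and a pair of hairpins against 1 gene is used because such side effects usually differ between them. The comparison therefore asks how far the MYC sites seen with one hairpin were also seen, and ranked alike, with the other.

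The 2 main shG9a_1 lists lay within the range of the shG9a_4 lists in length. On chromosomes 1 to 22, shG9a_1 replicates 2 and 3 listed 11309 and 12896 peaks. The shG9a_4 replicates 1, 2 and 3 listed 11044, 17206 and 12751 peaks. The means were 12102.5 ± 1122 (SD, n = 2) for shG9a_1 and 13667 ± 3181 (SD, n = 3) for shG9a_4, a difference of −1564.5 peaks (two-sided exact permutation test, p = 0.9; the smallest p that 10 splits of 5 libraries allow is 0.1). Without shG9a_4 replicate 2 the difference was 205 peaks in favour of shG9a_1, so its direction rests on that 1 library. Median peak width was 223 to 249 bp, and the authors' median fold enrichment, the pileup of fragments at the summit over the local background, was 6.24 to 6.77. Depth estimated from the peak values, relative to the mean of the 5 libraries, was 0.557 and 0.718 in shG9a_1 and 1.27, 0.704 and 1.75 in shG9a_4. Of these 5 the highest estimates were those of shG9a_4 replicates 1 and 3, while the longest list was that of replicate 2. By the same formula the estimate was 1.56 for shG9a_1 replicate 1, the library with the very short list. The formula divides by the shortest peak, which was 51 bp in that list and 130 to 151 bp in the others. Its lowest background was 0.36, close to the 0.37 of shG9a_1 replicate 2, so the 1.56 may not be comparable.

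The strongest MYC sites called with both hairpins are given first. They are the 10 regions with the highest mean strength among those called in all 5 libraries, so their sharing follows from that choice. Strength is a within-list percentile, the share of a list's peaks whose −log10 q-value is at or below that of the peak. The region at chr7:4681220-4682114 was the first of all 5 lists. Its fold enrichment was 64.1 and 92.9 in shG9a_1 replicates 2 and 3, and 60.6, 92.0 and 71.0 in shG9a_4 replicates 1 to 3. These values overlap between the hairpins and vary as much between replicates of either. The region at chr17:42147841-42148489 came next, with a fold of 59.3 and 75.6 in shG9a_1 and of 54.1, 56.9 and 60.3 in shG9a_4. The one at chr5:154134071-154135584 had a fold of 59.2 and 67.4 in shG9a_1 and of 23.2, 81.4 and 57.4 in shG9a_4. In that region the lowest and the highest value belong to the same hairpin. At chr1:33282605-33283272, shG9a_1 gave folds of 37.8 and 71.5, and shG9a_4 of 33.8, 82.4 and 56.1. At chr2:70313212-70314680, the fold was 47.6 and 34.1 in shG9a_1 and 52.1, 81.8 and 51.1 in shG9a_4. This is the one of the 10 strongest regions in which both shG9a_1 folds lay below all 3 shG9a_4 folds. The other regions among the 10 strongest were at chr20:37063260-37064156, chr20:342858-343489, chr8:145733678-145735330, chr7:45025687-45026739, and chr22:37957745-37958603. Their mean folds over the 5 libraries were 41.1 to 49.1, and the 10 stood at mean percentiles of 99.9 to 100.

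Merging the peaks of the 5 lists where they overlapped by at least 1 bp gave 23637 regions, and a library calls a region when 1 of its peaks overlaps it. All 5 libraries called 5257 regions (22.2%, Wilson 95% interval 21.7 to 22.8%, which like all intervals of shares here covers counting error only). A further 9211 regions (39.0%) were called in 1 library and no other. The shG9a_1 set, called in both replicates 2 and 3, held 7189 regions, and the shG9a_4 set, called in at least 2 of 3 libraries, held 11471. They shared 6488 regions, which is 90.2% (89.5 to 90.9%) of the shG9a_1 set and 56.6% (55.7 to 57.5%) of the shG9a_4 set. The rules differ, asking for both of 2 libraries or for 2 of 3, which also bears on the length of the sets. With at least 1 library of the other hairpin asked for, 97.4% of the shG9a_1 set and 83.4% of the shG9a_4 set were found again. With every list limited to its 11044 top peaks, the shared regions were 5776, or 87.3% of 6616 and 60.7% of 9517.

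In either direction, strong sites were shared more often than weak ones. In the weakest decile of the shG9a_1 set, 89.6% (87.1 to 91.6%) of 718 regions were called in at least 1 shG9a_4 library and 33.6% in all 3. In the strongest decile, 100% and 99.9% of 719 regions were. Seen from shG9a_4, 55.8% (52.9 to 58.6%) of 1147 regions in the weakest decile were called in at least 1 shG9a_1 library and 17.0% in both. In the strongest decile, 100% and 99.7% of 1148 were. The strongest sites were therefore found with both hairpins nearly without exception, and the weakest ones often were not. The weak regions were also narrower, with a median merged width of 364.5 bp in the weakest and 702 bp in the strongest decile of the shG9a_1 set. Merging the peaks of more lists can widen a region, so this width is not independent of the sharing.

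**Figure D1:**
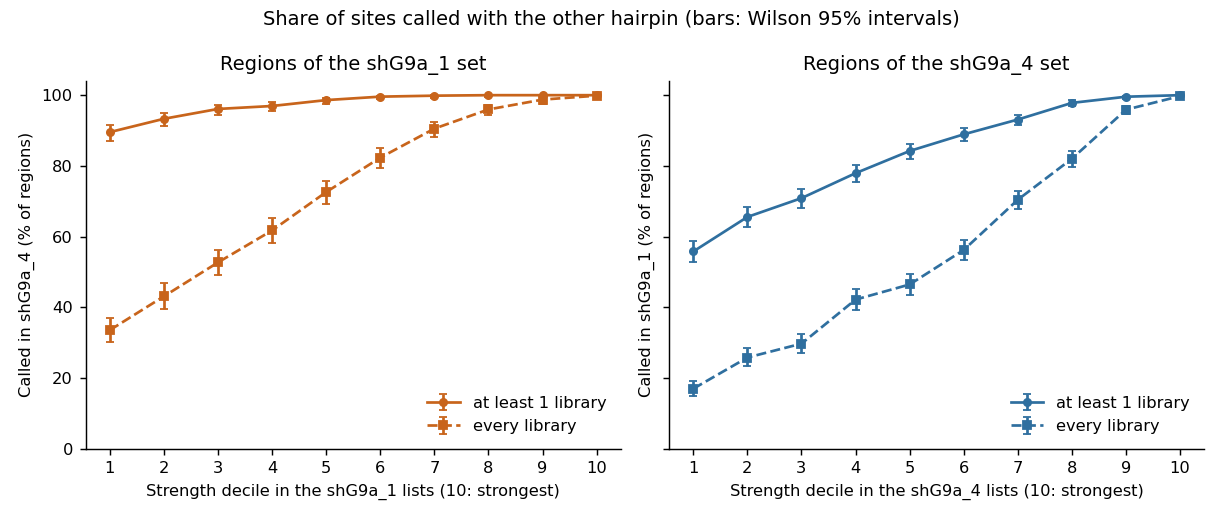
Share of the regions of each hairpin's set that were called with the other hairpin (y axis, %), by decile of strength in the own lists (x axis, 10 strongest), in at least 1 library (circles) or in every library (squares) of the other hairpin, with Wilson 95% intervals. Both curves of both panels climb to nearly 100% in the strongest decile, from 89.6% and 33.6% (shG9a_1 set) and 55.8% and 17.0% (shG9a_4 set) in the weakest.

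Weak sites were often not found again between replicates of 1 hairpin either. Of the weakest quintile of the regions of shG9a_1 replicate 2, 38.1% were found in its own replicate 3. In the shG9a_4 libraries, 31.7% (replicate 1), 52.9% (replicate 2) and 39.0% (replicate 3) of these regions were found. The value for the own hairpin lies within the range of those for the other. Of the weakest quintile of shG9a_1 replicate 3, 31.1% were found in its own replicate 2, and 31.7, 54.3 and 39.8% in shG9a_4 replicates 1 to 3, all higher. Of the weakest quintile of shG9a_4 replicate 1, 59.7% and 46.8% were found in its own replicates 2 and 3. In shG9a_1 replicates 2 and 3, 37.5% and 44.1% were found, both lower. Of the weakest quintile of the long list of shG9a_4 replicate 2, 20.4% and 24.9% were found in its own replicates 1 and 3, and 19.9% and 25.3% in the shG9a_1 replicates. For shG9a_4 replicate 3 these shares were 34.9% and 58.1% in its own replicates 1 and 2, and 32.9% and 43.5% in the shG9a_1 replicates. The own hairpin was thus neither always the higher nor always the lower. In the strongest quintile, all 20 such shares lay between 93.9 and 99.7%. The lists searched were of unlike length. The longest, that of shG9a_4 replicate 2 with 17206 peaks, gave the highest share wherever it was searched. These shares are therefore not a like comparison of the hairpins. With every list limited to 11044 peaks, 62.9 and 63.7% of all regions were found again within shG9a_1. Within shG9a_4 the shares were 65.1 to 70.4%, and between hairpins 63.3 to 68.1%.

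Counts of regions for sets of libraries that join both hairpins lay on both sides of the counts for sets of 1 hairpin. Exactly 2 libraries called 3909 regions, in 10 possible pairs. The pair of shG9a_1 replicates 2 and 3 called 187 of them, tied for the 8th place of 10. The most common pair, with 814 regions, joined shG9a_1 replicate 3 and shG9a_4 replicate 2, and the rarest, with 130, joined shG9a_1 replicate 2 and shG9a_4 replicate 1. The 4 most common pairs all include shG9a_4 replicate 2, which has the longest list. Exactly 3 libraries called 2778 regions. The 3 shG9a_4 libraries called 438 of these, after the 687 of shG9a_1 replicate 3 with shG9a_4 replicates 2 and 3. With equal peak numbers the counts drew together: pairs held 262 to 375 regions, 274 of them for the shG9a_1 pair (9th of 10), and sets of 3 held 160 to 327, 299 of them for shG9a_4 (2nd of 10). These are counts without a test.

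**Figure D2:**
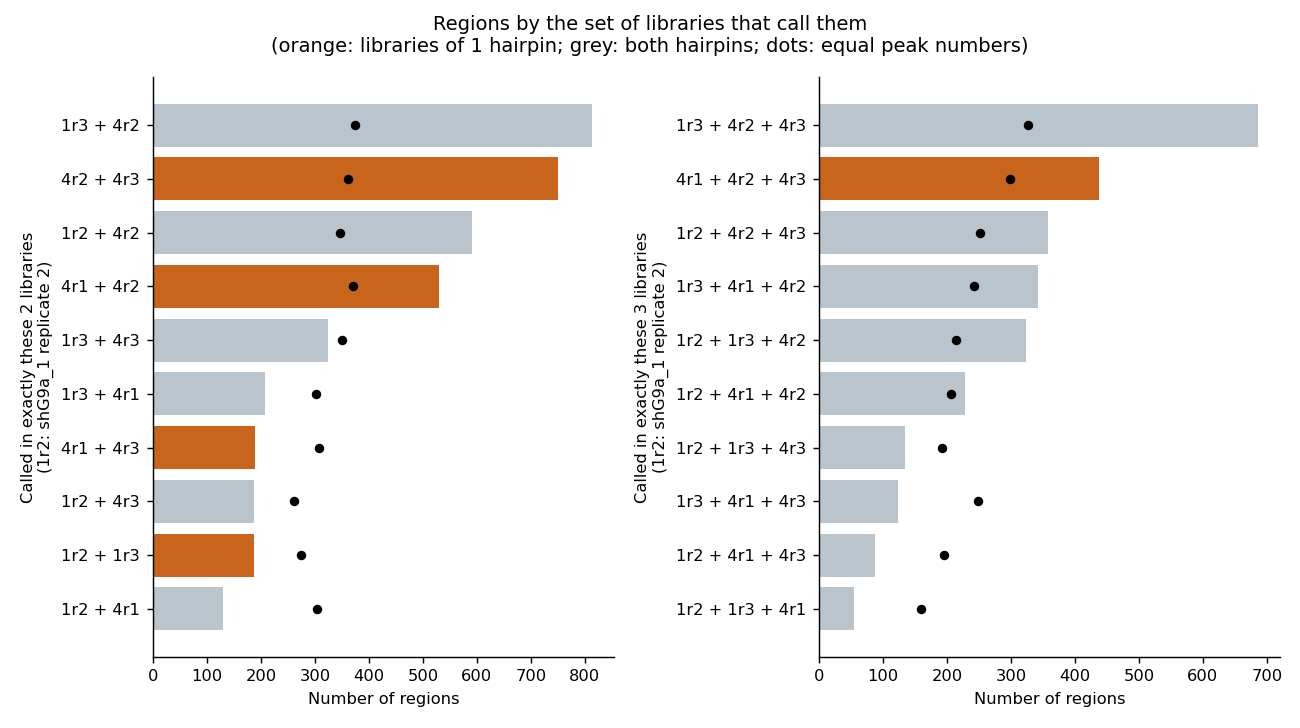
Number of regions (x axis) called in exactly the 2 (left) or 3 (right) libraries named on the y axis; bars are the full lists, orange for libraries of 1 hairpin and grey for sets that join both, and black dots are lists of equal peak number. Orange bars stand among the grey ones, with 187 regions for the shG9a_1 pair and 438 for the 3 shG9a_4 libraries.

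The 438 regions called in all 3 shG9a_4 libraries and in neither shG9a_1 library were weak ones, as 6.31% of the 6946 regions that all 3 shG9a_4 libraries called. Their median percentile was 37.2, 45.1 and 35.3 in shG9a_4 replicates 1 to 3, their median fold 5.97 and their median peak width 196 bp, against a fold of 8.84 and 324 bp for regions of all 5 libraries. The strongest was at chr1:202546008-202546266, with a fold of 13.3, 9.14 and 7.18 in shG9a_4 replicates 1 to 3 and percentiles of 95.8, 81.3 and 80.8. Its nearest region called with shG9a_1 lay 230352 bp away. A region at chr5:81692719-81692964 had a fold of 13.5, 9.23 and 9.36. One at chr10:64875590-64875883 had 8.35, 12.6 and 9.87, with the nearest shG9a_1 region 153082 bp away. All 3 of these sites stood well inside their shG9a_4 lists, at mean percentiles of 80.8 to 86.0. The next in strength were at chr6:27805016-27805442, chr5:158768891-158769165, chr18:55956554-55956915, chr10:114871778-114872028, chr9:90407739-90407992, chr16:84676677-84676999, and chr5:114685068-114685300. Their mean percentiles were 69.3 to 74.9 and their mean folds 8.04 to 9.06. The count rose whichever library was left out, since fewer lists are then asked for or can hold a region. It was 893 without shG9a_1 replicate 2 and 1249 without shG9a_1 replicate 3. Without shG9a_4 replicates 1, 2 and 3 it was 1188, 636 and 976. With a −log10 q of at least 5 asked for, it was 430.

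The 187 regions called in both shG9a_1 libraries and in no shG9a_4 library were weaker still, and made up 2.60% (2.26 to 3.00%) of the shG9a_1 set. The rules for the 2 classes differ, which bears on their strength. Regions of shG9a_4 had to be in 3 lists and missing from 2, and those of shG9a_1 in 2 lists and missing from 3. Their median percentiles were 33.1 and 30.8 in replicates 2 and 3, their median fold was 5.68 and their median peak width 181 bp. The strongest was at chr8:10570851-10571172, with a fold of 6.75 and 9.68 in shG9a_1 replicates 2 and 3 and percentiles of 63.6 and 78.1. It ended 186 bp from a region called with shG9a_4. A region at chr5:179222998-179223532 had a fold of 9.31 and 6.79, and one at chr17:40715598-40715811 of 7.30 and 8.36. None of the 187 reached a mean percentile above 70.9, whereas 5 of the 438 shG9a_4 regions did. The others of the 10 strongest were at chr17:48739253-48739567, chr1:244211736-244211938, chr2:131130028-131130439, chr2:43447153-43447420, chr19:30096999-30097236, chr7:73393449-73393720, and chr17:37607343-37607848, at mean percentiles of 56.4 to 64.5. Asking for a −log10 q of at least 5 left 80 regions. The count was 1896 without shG9a_1 replicate 2, 1587 without replicate 3, 524 without shG9a_4 replicate 2 and 324 without shG9a_4 replicate 3, since a single shG9a_1 list then stood for the hairpin or 1 list fewer could hold the region.

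Some of the unshared regions lay beside a region of the other hairpin. Of the 438 regions of shG9a_4, 124 (28.3%) lay within 1 kb of a region that at least 1 shG9a_1 library called, and in 50 of these the nearest such region was called in all 5 libraries. Of the 187 regions of shG9a_1, 69 (36.9%) lay within 1 kb of a region called with shG9a_4, 18 of them next to a region of all 5. Among the 5257 regions of all 5 libraries, 37.4% had another region of any library within 1 kb. Farther than 10 kb from any region of the other hairpin lay 229 regions of shG9a_4 and 90 of shG9a_1. Their median percentiles, 39.5 and 31.8, were close to those of the regions within 1 kb, 35.4 and 30.2. The unshared regions were spread over all 22 chromosomes.

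The agreement of the site order between hairpins overlapped with that between replicates of 1 hairpin. Ranks by −log10 q were compared over the 5257 regions called in all 5 libraries, so that each pair of libraries was compared over the same regions. Spearman's rho was 0.630 between the 2 shG9a_1 libraries, and 0.679, 0.682 and 0.724 between the 3 shG9a_4 libraries. Between hairpins it was 0.623, 0.654 and 0.662 for shG9a_1 replicate 2 with shG9a_4 replicates 1, 2 and 3, and 0.638, 0.680 and 0.697 for shG9a_1 replicate 3. Of the 6 values between hairpins, 5 were above the one within shG9a_1 and 2 were above the lowest within shG9a_4. The lowest rho joined the 2 shortest lists, those of shG9a_1 replicate 2 and shG9a_4 replicate 1. With every list limited to 11044 peaks that pair still had the lowest rho, 0.619 over 4664 regions. The points share their libraries and the positions of the sites, and the values are descriptions. On average rho was 0.679 within and 0.659 between hairpins, a difference of 0.0199 (two-sided exact permutation test over libraries, p = 0.3; the smallest possible is 0.1). With replicate 1 of shG9a_1 included, over the 107 regions that all 6 lists hold, the difference was −0.0226 (exact permutation p = 0.1, the smallest possible), with between-hairpin pairs the more alike. A typical region changed place by 12.0 to 14.9 percentiles within hairpins and by 12.8 to 15.0 between them, as the median over regions for each pair.

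Overlaps at the head of the lists lay in the same range for both kinds of pair. Of the 100 strongest peaks, the shG9a_1 libraries shared 62 regions, pairs of shG9a_4 libraries 64 to 72, and pairs between hairpins 64 to 73. Among the top 1000, the shG9a_1 pair shared 647 regions and the shG9a_4 pairs 681, 691 and 716, while pairs between hairpins shared 650 to 712. The means were 683.75 within and 676 between hairpins, 7.75 regions apart (two-sided exact permutation test, p = 0.5; smallest possible 0.1). The direction turned when any shG9a_4 library was left out, with differences of −3.75 (replicate 1), −5.25 (replicate 2) and −4.5 (replicate 3), and it was 32 without shG9a_1 replicate 3.

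Summit position and peak width, which the ranks do not use, also gave overlapping values within and between hairpins. In 3845 regions with a single peak in each of the 5 libraries, the median distance between the summits of a pair of libraries was 36 bp within shG9a_1, 29 to 32 bp within shG9a_4 and 31 to 35 bp between hairpins. The means were 33.0 bp between and 31.75 bp within, 1.25 bp apart (two-sided exact permutation test, p = 0.3; smallest possible 0.1). Without shG9a_4 replicate 1 that difference was −0.25 bp. Between 63.6 and 70.6% of the summits of a pair lay within 50 bp of each other. Spearman's rho of peak width over the 5257 regions was 0.555 within shG9a_1, 0.554 to 0.621 within shG9a_4 and 0.543 to 0.612 between hairpins.

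**Figure D3:**
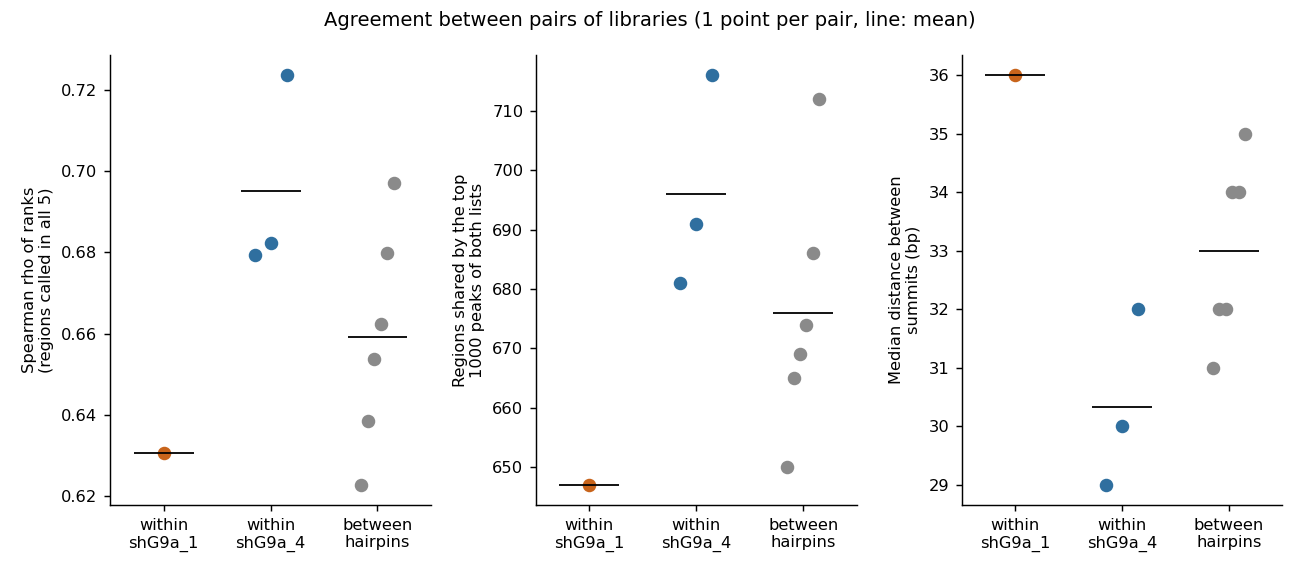
Rank correlation, regions shared among the top 1000 peaks, and median summit distance in bp (y axes, from left to right) for each of the 10 pairs of libraries, grouped on the x axis as within shG9a_1, within shG9a_4 and between hairpins, with the group mean as a line. In each panel the 6 pairs between hairpins lie between or among the pairs of 1 hairpin, apart from the lowest rho of 0.623, and the shG9a_1 pair stands at the less alike end.

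Single sites were then tested for a different rank with each hairpin. Ranks within the 5257 regions were turned into normal scores, in which 1 unit is 1 SD of all sites of a library, and compared with limma. No region passed an adjusted p of 0.05 (0% of 5257; lowest Benjamini-Hochberg adjusted p = 0.769). At an unadjusted p under 0.05 there were 291 regions, 5.54% of those tested, of which 117 ranked higher in shG9a_1 and 174 higher in shG9a_4. The median difference, sign aside, was 0.333 units, and the median 95% interval reached 0.980 units to either side. Differences of less than about 1 unit were thus within the error of most single sites, and the absence of calls does not show that these sites ranked alike. In 20.5% of the regions the scores of the hairpins did not overlap: in 537 (10.2%) both shG9a_1 scores were above all 3 shG9a_4 scores, and in 542 (10.3%) both were below. This is a count of orderings, not of tested differences, and it holds no region that passed limma. With 2 libraries against 3, such orderings are also common where hairpins do not differ. The mean scores of the hairpins correlated at 0.824 (Pearson) and 0.798 (Spearman) across the 5257 regions, which are not independent replicates.

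**Figure D4:**
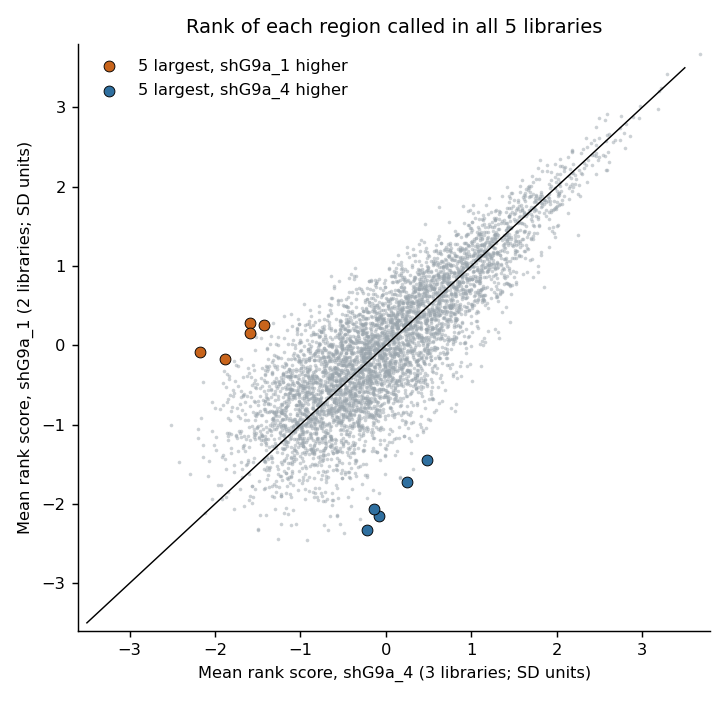
Mean rank score of each of the 5257 regions called in all 5 libraries, with shG9a_4 (3 libraries) on the x axis and shG9a_1 (2 libraries) on the y axis, in SD units of all sites; the line marks equal scores and the coloured points are the 5 regions with the largest difference in each direction. The points follow the line with a Pearson correlation of 0.824, tightest among the strongest sites, and none passed the limma test.

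The spread of ranks was smallest among the strongest sites. The quintiles were formed from the mean score over the same 5 libraries, and percentiles are bounded at both ends. A smaller spread at either end is thus partly built in. In the strongest quintile of the 5257 regions the median SD of the rank percentile over the 5 libraries was 6.19, against 19.5 in the middle quintile and 14.1 in the weakest. The hairpin means differed there by a median of 3.85 percentiles and the 2 shG9a_1 replicates by 5.22. In the middle quintile these values were 13.4 and 22.2. In no quintile was the median difference between hairpin means larger than that between the 2 replicates of shG9a_1, though a mean of several libraries varies less than a single one.

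The regions with the largest differences in rank are given as a description, since they were picked for that difference and none passed the test. At chr20:62515952-62516241, the fold was 8.59 and 8.31 in shG9a_1 and 4.66, 7.23 and 2.96 in shG9a_4, a score difference of 2.09 ± 0.64 (SE). At chr22:46731480-46732001, the fold was 8.07 and 13.1 in shG9a_1 and 4.13, 5.01 and 7.22 in shG9a_4. Their rank percentiles were 39.0 to 73.3 in the shG9a_1 libraries and at most 27.4 in the shG9a_4 libraries. The other 3 that ranked higher in shG9a_1 were at chr12:122232013-122232385, chr2:128848605-128849163, and chr19:49140827-49141227, with differences of 1.68 to 1.74 units.

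In the other direction, the region at chr19:39971247-39971863 had a fold of 4.69 and 3.23 in shG9a_1 and of 8.09, 9.03 and 9.72 in shG9a_4, with a score difference of −2.11 ± 0.45 (SE). At chr19:54711927-54712444, the fold was 4.85 and 4.32 in shG9a_1 and 9.23, 13.7 and 12.0 in shG9a_4, a difference of −1.93 ± 0.39 (SE). In both regions every shG9a_4 fold was above both shG9a_1 folds. Those at chr17:79303305-79303753, chr8:129188869-129189435, and chr2:207630236-207630761 completed the 5, with differences of −2.08 to −1.92 units. The chr8 difference was −1.04 without shG9a_1 replicate 3. With ranks by recovered pileup, an alternative added after the data were seen, the 5 differences kept their direction but were −1.36 to −0.32 units, with −0.53 and −0.96 at the chr19 regions. The largest rank differences thus lay among sites of middling or low strength, with rank percentiles among the 5257 regions of at most 74.9 in any library.

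**Figure D5:**
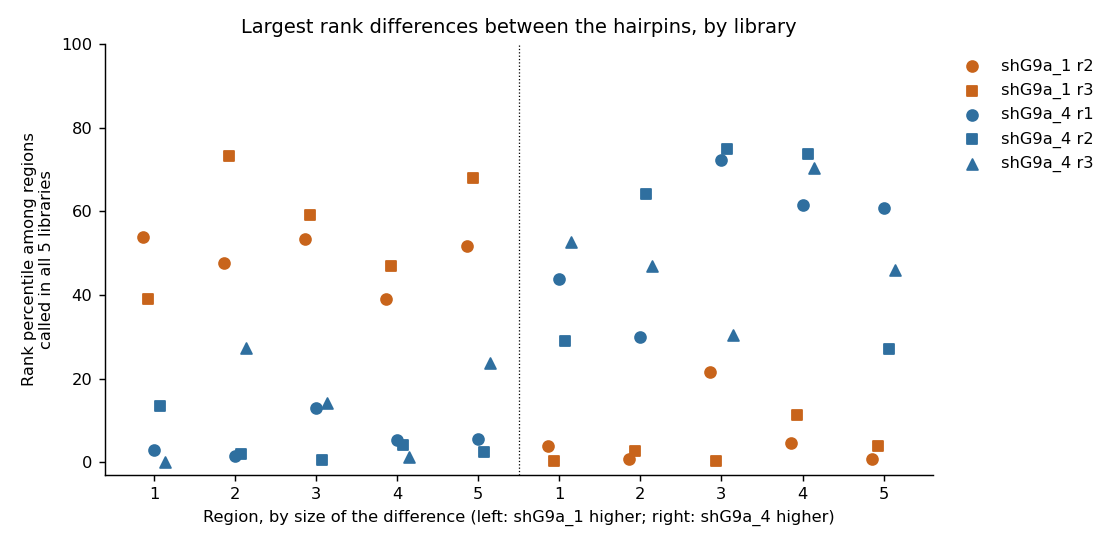
Rank percentile among the 5257 common regions (y axis, 100 strongest) in each of the 5 libraries, for the 5 regions with the largest rank difference in each direction (x axis, by size of the difference; left, shG9a_1 higher; right, shG9a_4 higher). Orange symbols are shG9a_1 and blue symbols shG9a_4; the groups do not overlap in any of the 10 regions, which were chosen for their difference, and no percentile exceeds 74.9.

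Whether neighbouring sites shifted together was asked along the chromosomes. Mean scores were compared with limma in 201 windows of 10 Mb with at least 10 regions each, and no window passed an adjusted p of 0.05 (0%; lowest adjusted p = 0.686), while 8 (3.98%) had an unadjusted p under 0.05. The largest differences were −0.45 ± 0.13 units (SE) at 60 to 70 Mb of chromosome 1, over 12 regions, and 0.41 ± 0.12 (SE) at 20 to 30 Mb of chromosome 20, over 14 regions. In the chromosome 1 window the mean scores were −0.65 and −0.25 in shG9a_1 and 0.08, −0.01 and −0.08 in shG9a_4. In the chromosome 20 window shG9a_1 had 0.26 and 0.02, and shG9a_4 had −0.17, −0.43 and −0.21. In neither window did the hairpins overlap. The next were at 10 to 20 Mb of chromosome 3, with −0.29 units, and at 20 to 30 Mb of chromosome 14, with 0.36 units. With peaks of a −log10 q of at least 5, 2 of 141 windows passed with limma, and they are named after their values were seen. One was the same window of chromosome 20, with a difference of 0.48 ± 0.13 units (SE, adjusted p = 0.0341). The other was at 10 to 20 Mb of chromosome 11, with 0.54 ± 0.14 units (SE, adjusted p = 0.0341), where the full lists gave 0.19 ± 0.12 (SE, adjusted p = 0.926). In the chromosome 20 window the SE was 0.133 in the stricter setting and 0.123 in the full lists. The 95% interval nevertheless reached only 0.265 units to either side, against 0.271 in the full lists. In the stricter setting limma pooled the error across windows more strongly, which bears on both adjusted p-values.

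The share of each library's regions on each chromosome was likewise compared. No chromosome of 22 passed (0%; limma, lowest adjusted p = 0.431), and 2 (9.09%) had an unadjusted p under 0.05. Chromosome 13 held 1.89 and 2.09% of the regions in shG9a_1 and 2.08, 2.1 and 2.11% in shG9a_4. On chromosome 20 the shares were 3.49 and 3.55% with shG9a_1, and 3.35, 3.37 and 3.35% with shG9a_4. The ratio of shares, shG9a_1 over shG9a_4, ran from 0.947 on chromosome 13 to 1.05 on chromosome 20. The next in order were chromosome 9, with a ratio of 0.964, and chromosome 22, with 1.04.

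Replicate 1 of shG9a_1, kept apart, held the strongest sites of the other lists and little else. Its 111 peaks on chromosomes 1 to 22 fell in 107 regions, and all 107 were called in all 5 other libraries. Their mean percentile over those libraries had a median of 99.0, and 102 of the 107 stood at 90 or above. Of the 100 strongest regions common to the 5 libraries it held 57. Its peaks were 51 to 359 bp wide with a median of 80.0 bp, against medians of 223 to 249 bp in the others, and its folds ran from 4.5 to 19.1. The shortest peaks of the 5 other lists were 130 to 151 bp wide. Whether all lists were called with like settings is not given in the sources, so its widths and folds may not be comparable with theirs. The strongest of its regions was again the one at chr7:4681220-4682114, where its fold was 19.1, against 60.6 or more in each of the 5 other libraries. The next were at chr7:45025687-45026739, with a fold of 12.2, chr16:21531382-21532174, with 12.3, chr7:6048757-6049361, with 12.2, and chr19:1863921-1864635, with 11.6. All 4 had a mean fold of 32.0 or more in the 5 other libraries. Its order of the 107 regions had a Spearman's rho of 0.284 and 0.335 with the other shG9a_1 libraries and of 0.379, 0.331 and 0.340 with shG9a_4 replicates 1 to 3.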

How the data were processed

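MYC ChIP-seq libraries of 6 samples were analysed from the peak list of each. Per the submitters' processing notes, the tools were MACS2 2.1.0, Picard 2.7.1, SAMtools 1.3 and STAR 2.5.2a and the build is hg19; for the role and settings of each, and the pairing of inputs: not given in the sources used here. Reads were single 50 bp reads per the labels' protocols. Each deposited list gives, per peak, a score, a fold enrichment (a ratio), −log10 p- and q-values and a summit offset; all of these are the authors' values, used to rank or describe peaks within a list. Peaks below the limit of the caller are not listed, and a region outside a list may still be bound. Total read counts were not used. The summit pileup was recovered from the fold and the Poisson p (within 0.001 in −log10 p), and the local background from the pileup and the fold. Relative depth is the lowest recurrent background divided by the width of the shortest peak of a list. It is an estimate that was not checked against read counts.

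Peaks on chromosomes 1 to 22 of 5 libraries were merged at an overlap of at least 1 bp. Ranks by −log10 q, within the regions called in all 5, were turned into normal scores and compared with limma 3.58.1 (R 4.3.3) with Benjamini-Hochberg adjustment. Single values were compared by two-sided exact permutation over libraries. Shares have Wilson 95% intervals. The merging and the fit were tested on simulated data. The design names the replicates biological. Shared replicate numbers are not stated to mark a shared culture or day.

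Named regions are the 10 strongest called in all 5 libraries and in each hairpin alone, the 5 largest rank differences in each direction, the 5 strongest of shG9a_1 replicate 1, and the 2 windows and chromosomes at each end. The members and lists were chosen with earlier results of these data known. No annotation of hg19 was used, so that the gene lists set up for it were not applied and regions carry no gene names or sequences. The alternatives were leaving out each library, including shG9a_1 replicate 1, a −log10 q of at least 5, lists of equal length, ranks by fold, another overlap rule, other window sizes and a replicate block. Ranks by recovered pileup were added after the data were seen. Inputs and scramble libraries were not used here.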

Additional observations from a re-analysis of the deposited data

How the results depend on the processing

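No region passed limma in any setting run: at an unadjusted p under 0.05 there were 1 to 426 regions, and the lowest adjusted p was 0.180 to 0.958. Leaving out 1 library at a time gave a peak number difference of −2876 to 205, a difference in rank correlation of 0.000218 to 0.050, a top 1000 difference of −5.25 to 32 (−3.75, −5.25 and −4.5 without shG9a_4 replicates 1, 2 and 3), and a summit difference of −0.25 to 3 bp. It gave 5381 to 8458 regions in both hairpins, 5381 to 6064 in all libraries, 636 to 1249 of shG9a_4 alone and 243 to 1896 of shG9a_1 alone, since fewer lists are then asked for or can hold a region. With a −log10 q of at least 5 there were 4232 regions in both hairpins, 430 of shG9a_4 alone, 80 of shG9a_1 alone and 2 windows that passed. Adding shG9a_1 replicate 1 left 107 regions in all libraries and a rank correlation difference of −0.0226; windows and chromosomes could not be tested with it, having too few regions. With a replicate block (replicates 2 and 3), which is not read as a pairing, the peak number difference was −1564.5 (exact permutation p = 1, smallest possible 0.25), and 0 regions (369 at an unadjusted p under 0.05), 0 windows and 0 chromosomes passed limma. Deviations of same-numbered libraries correlated at −0.00908 and 0.0185. Of the recomputed values at single named regions, 407 were counted as kept and 40 as moved, and no rank difference reversed. For mean percentiles, kept means a shift smaller than the spread over libraries. For rank differences it means only the same direction and no adjusted p under 0.05 with limma, whatever the size. The chr8 rank difference, for example, ran from −2.90 to −1.04 with 1 library left out. Recovered depth was 0.557 to 1.75 of the mean and did not follow list length.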

Other observations

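Chromosome X was outside the comparisons and had 373 regions over the same 5 libraries. There were 146 and 165 called in shG9a_1 replicates 2 and 3, and 116, 240 and 160 in shG9a_4 replicates 1 to 3. All 5 libraries called 55 regions and 177 were called in 1 library. The shG9a_1 set held 87 regions and the shG9a_4 set 142, with 73 in both. Called with shG9a_1 alone were 4 regions, and with shG9a_4 alone 2.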
